A study of Mus musculus with 6 samples.

Results

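The neuronal basic helix-loop-helix (bHLH) factors of the proneural cascade were taken as a list of 9 genes, namely Neurog2, Neurod1, Neurod2, Neurod4, Neurod6, Nhlh1, Nhlh2, Bhlhe22 and Tcf4. They were found by gene symbol among 34289 genes with a matched transcript, and all 9 had at least 1 transcript in the deposited data. RNA was sequenced from postmitotic neurons of mouse cortex at E14.5, with 3 libraries from Rp58-/- (mutant) cortices and 3 libraries from Rp58+/+ (control) cortices. Rp58 is now named Zbtb18 and encodes a zinc finger protein that acts as a transcriptional repressor in the developing cortex. The labels give no strain, no Cre or promoter, and not which part of the gene was altered, and they do not say how neurons were separated from other cells. Nothing in them tells whether replicates were taken from different embryos, so the p-values measure the spread between these libraries, which may be technical. The comparison asks how these factors differ between cortical neurons without and with Rp58.

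Proneural factors such as Neurog2 are switched on in cortical progenitors, bind E-box sequences together with E proteins such as Tcf4, and start neuronal differentiation. NeuroD and Nhlh factors act after Neurog2 in newborn neurons, and Neurod2, Neurod6 and Bhlhe22 are typical of more mature excitatory neurons. Id proteins lack a DNA-binding region and hold E proteins in inactive pairs. RP58 is known to bind DNA at an E-box core preceded by A, ACATCTG, and to repress nearby genes.

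The promoters of the 4 members that were higher in mutant libraries are shown because bHLH factors bind E-boxes and RP58 binds the form in ACATCTG. A marked E-box of another form is therefore not a match to the RP58 site. They are RefSeq sequences of GRCm38.p6, from 250 bases before to 50 bases after the start of the gene, read 5′ to 3′ on the strand of the gene, and capitals mark every E-box (CANNTG, which reads the same class of site on both strands). The windows are chr3:127632886-127633185 (plus strand) for Neurog2, chr2:79456587-79456886 (minus strand) for Neurod1, chr1:172057547-172057846 (minus strand) for Nhlh1 and chr3:102009895-102010194 (plus strand) for Nhlh2.
Neurog2: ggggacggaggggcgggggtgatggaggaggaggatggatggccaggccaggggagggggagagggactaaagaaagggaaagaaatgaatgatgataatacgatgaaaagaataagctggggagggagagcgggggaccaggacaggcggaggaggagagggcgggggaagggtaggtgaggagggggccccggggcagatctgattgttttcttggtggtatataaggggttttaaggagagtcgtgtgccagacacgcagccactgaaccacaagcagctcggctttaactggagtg
Neurod1: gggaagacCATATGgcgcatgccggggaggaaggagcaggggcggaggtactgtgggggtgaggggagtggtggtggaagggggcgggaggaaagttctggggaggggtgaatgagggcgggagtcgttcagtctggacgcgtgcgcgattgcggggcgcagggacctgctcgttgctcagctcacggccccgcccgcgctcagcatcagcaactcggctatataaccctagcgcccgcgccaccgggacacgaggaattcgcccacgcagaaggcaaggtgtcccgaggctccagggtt
Nhlh1: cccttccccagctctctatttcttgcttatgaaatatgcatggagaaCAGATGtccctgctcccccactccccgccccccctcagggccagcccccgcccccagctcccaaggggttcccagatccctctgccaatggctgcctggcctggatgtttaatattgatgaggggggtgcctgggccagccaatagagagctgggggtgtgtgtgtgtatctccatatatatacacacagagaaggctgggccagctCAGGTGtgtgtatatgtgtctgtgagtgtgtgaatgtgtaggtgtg
Nhlh2: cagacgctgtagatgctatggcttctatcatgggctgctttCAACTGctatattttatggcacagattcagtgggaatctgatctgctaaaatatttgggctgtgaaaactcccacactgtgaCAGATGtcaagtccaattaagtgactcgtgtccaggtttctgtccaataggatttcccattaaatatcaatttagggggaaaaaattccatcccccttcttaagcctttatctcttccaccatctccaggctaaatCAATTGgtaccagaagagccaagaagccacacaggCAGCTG

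The Neurog2 window held no E-box, and that of Neurod1 held 1, a CATATG that began 242 bases before the start. Nhlh1 had 2 E-boxes and Nhlh2 had 4. In both Nhlh genes 1 E-box was CAGATG followed by T, which is ACATCTG on the other strand, beginning 203 bases before the start in Nhlh1 and 127 bases before it in Nhlh2. Over all 32851 promoters of the table, 72.3% held at least 1 E-box, 17.2% held CATCTG and 4.43% held ACATCTG on either strand, the first class including the others and the second including the third. CATATG was in 3.91% of them. Promoters of 7 of the 9 members were read. Tcf4 was left out of this reading beforehand, and Bhlhe22 had no promoter in the table. Apart from the 4 shown, Neurod2 had 3 E-boxes and Neurod6 had 2. Neurod4, with 2 windows in the table, had 0 in one and 1 in the other. None of these was ACATCTG. A match describes the letters in this window only.

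Total estimated counts were between 53044306 and 56472475 in mutant libraries and between 34645505 and 75892649 in control libraries. The deposited effective lengths split the libraries into 2 types that cross the genotypes. In the fixed-length type (mutant 1, mutant 2 and control 1) the length minus the effective length of long transcripts was the same in all 3 libraries. In the estimated-length type (mutant 3, control 2 and control 3) it was lower and differed between libraries, with a median of 133.7 to 139.2 bases. Mitochondrial genes took 3.58% to 5.15% of the counts in the first type and 16.4% to 17.5% in the second. Genotypes were therefore compared with library type as a term, and levels in CPM (counts relative to the library total) are scaled to the normalized library size. Of 16985 genes tested, 2537 (14.9%) were called at an adjusted p under 0.05 in edgeR's quasi-likelihood test, 1346 of them higher in mutant libraries (7.92%) and 1191 lower (7.01%). Without the type term 400 genes (2.36%) were called. The median log2 fold change of all tested genes was -0.00077.

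Zbtb18 itself had 46.7, 45.7 and 538 CPM in mutant libraries 1 to 3, against 1902, 1587 and 1697 CPM in control libraries 1 to 3. Every mutant library was below every control, but mutant 3 kept 32.8% of the mean of the controls of its type, whereas mutants 1 and 2 averaged 2.43% of the control of theirs. The log2 fold change was -3.48 ± 0.81 (SE; adjusted p = 0.0337), and it was not called without control 3, mutant 1 or mutant 2 (adjusted p of 0.0511, 0.119 and 0.0899) or without the type term (0.400). Results for the called members are therefore given with and without mutant 3. With the type term, leaving out mutant 3 leaves mutants 1 and 2 against control 1 alone, the contrast within the fixed-length type, in which the lone control is assumed to vary like the other libraries. Leaving out control 1 likewise leaves mutant 3 against controls 2 and 3. Among the named markers of neurons, Stmn2 and Rbfox3 were present in every library, at 123 to 424 CPM and 54.0 to 221 CPM in mutant libraries and at 308 to 1043 CPM and 29.1 to 83.8 CPM in controls.

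Of the 9 members, 8 had enough counts to be tested. Neurog2, Neurod1, Nhlh1 and Nhlh2 rose in mutant libraries, Neurod6 fell, and Neurod2, Bhlhe22 and Tcf4 were not called. That is 5 of 8 called, set against 14.9% of all tested genes, with 4 that rose against 7.92% and 1 that fell against 7.01%. Without the type term 3 of 8 members were called (Neurog2, Neurod1 and Nhlh2, all higher), against 2.36% of all genes. Neurog2, Neurod1 and Nhlh2 were higher in every mutant library than in any control, as were 8.80% of all tested genes, and Neurod2 and Bhlhe22 were lower in every mutant library than in any control, as were 6.64%.

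**Figure D1:**
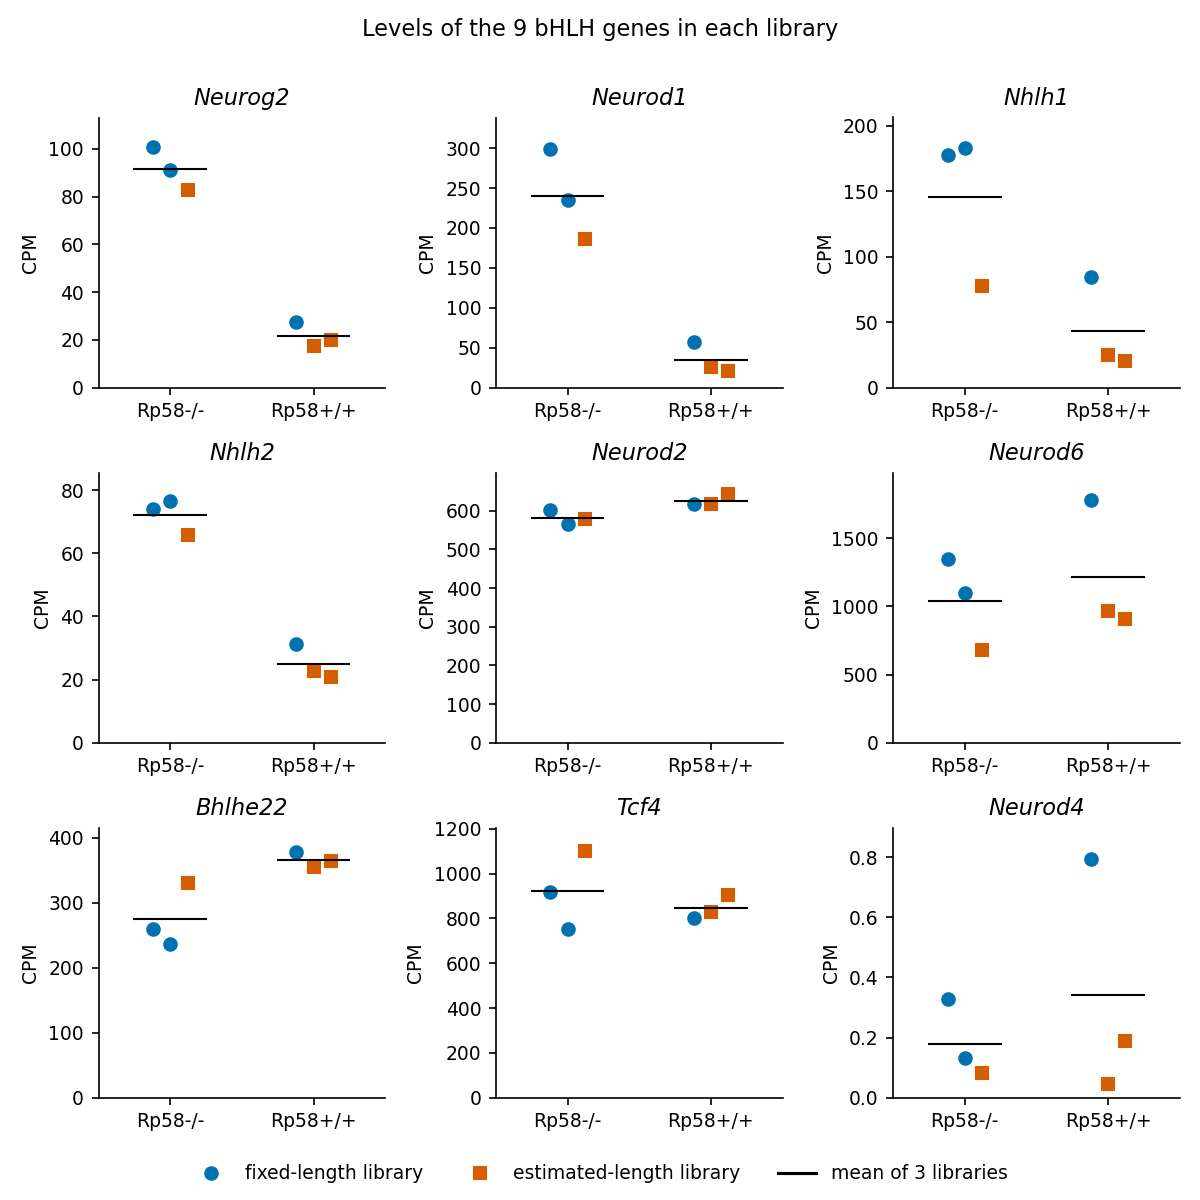
Level in CPM (y axis, from 0) of each of the 9 bHLH genes in Rp58-/- (left) and Rp58+/+ (right) libraries. Each point is 1 library, with circles for the fixed-length type and squares for the estimated-length type, and the line is the mean of 3. Neurog2 lies between 82.9 and 101 CPM in the mutant libraries and between 17.4 and 27.6 CPM in the controls, while the Neurod2 points lie close to each other at around the same height in both.

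Neurog2, the proneural factor that commits cortical progenitors to an excitatory neuronal fate, had 101, 91.3 and 82.9 CPM in mutant libraries 1 to 3, against 27.6, 17.4 and 20.0 CPM in control libraries 1 to 3. Every mutant library was far above every control, and within each genotype the library types lay close together. The means were 91.6 ± 8.82 CPM in mutant and 21.7 ± 5.27 CPM in control libraries (SD, n = 3 each). This was a 3.93-fold rise, with a log2 fold change of 1.97 ± 0.11 (adjusted p = 0.000123). It was 2.08 without the type term (adjusted p = 0.0117) and 1.80 without mutant 3 (adjusted p = 0.00234). Since these are bulk libraries, more cells with Neurog2 RNA and more Neurog2 RNA per cell cannot be told apart, here or for any other gene.

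Neurod1, a NeuroD factor that is a direct target of Neurog2 and is switched on as cells leave the cell cycle, had 299, 235 and 186 CPM in mutant libraries, against 57.2, 25.5 and 21.3 CPM in controls. It showed the steepest rise of the 9 genes, and the fixed-length libraries were the high ones in both genotypes. The means were 240.2 ± 56.7 CPM in mutant and 34.7 ± 19.7 CPM in control libraries (SD, n = 3 each). This was a 6.10-fold rise, with a log2 fold change of 2.61 ± 0.20 (adjusted p = 0.000384). Without the type term it was 2.79 (adjusted p = 0.0426), and without mutant 3 it was 2.22 (adjusted p = 0.00400).

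Nhlh1, a bHLH factor of newborn neurons also known as Hen1 or NSCL1, had 177, 183 and 77.3 CPM in mutant libraries, against 84.2, 24.7 and 20.5 CPM in controls. The groups overlapped across library types, because mutant 3 lay below control 1, yet within each type every mutant library was above every control. The log2 fold change with the type term was 1.43 ± 0.16, or 2.70-fold (adjusted p = 0.00178). It was 1.76 ± 0.66 without the term, where the call was lost (adjusted p = 0.440). It was 1.10 without mutant 3 (adjusted p = 0.0129).

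Nhlh2, the close relative of Nhlh1, had 74.1, 76.4 and 65.7 CPM in mutant libraries, against 31.3, 22.9 and 20.9 CPM in controls. All mutant libraries were above all controls, with less difference between the types than for Nhlh1. The means were 72.1 ± 5.65 CPM in mutant and 25 ± 5.56 CPM in control libraries (SD, n = 3 each). Nhlh2 rose 2.69-fold, with a log2 fold change of 1.43 ± 0.10 (adjusted p = 0.000260), and it was 1.53 without the type term (adjusted p = 0.0255) and 1.27 without mutant 3 (adjusted p = 0.00394).

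Neurod2, a NeuroD factor of differentiating excitatory neurons with a role in synapse development, had 602, 565 and 578 CPM in mutant libraries, against 618, 617 and 643 CPM in controls. The mutant libraries were all slightly below the controls, with means of 582 ± 18.5 CPM in mutant and 626 ± 14.9 CPM in control libraries (SD, n = 3 each). The difference was not called, with a log2 fold change of -0.10 ± 0.08 (adjusted p = 0.453). Leaving out each library in turn moved it between -0.12 and -0.08, again with no call.

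Neurod6, also known as Math2 or NEX and a marker of excitatory cortical neurons, had 1345, 1096 and 679.6 CPM in mutant libraries, against 1782, 967 and 911 CPM in controls. Across types the groups overlapped, while within each type every mutant library was below its controls, at 68.5% of control in the fixed-length and 72.4% in the estimated-length type. The log2 fold change was -0.51 ± 0.11, or 1.42-fold lower (adjusted p = 0.0231). This call was lost without the type term (-0.23; adjusted p = 0.996) and without mutant 3 (-0.55; adjusted p = 0.101). It was lost as well when control 1, control 2 or control 3 was left out, with an adjusted p of up to 0.204, and held only without mutant 1 or mutant 2.

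Bhlhe22, a repressor of the Olig-related bHLH family that works with Prdm8 in corticospinal neurons, had 259, 237 and 330.2 CPM in mutant libraries, against 378, 355 and 364 CPM in controls. Mutants 1 and 2 were well below all controls, and mutant 3 was just below them. The log2 fold change was -0.36 ± 0.12, which was not called (adjusted p = 0.101). DESeq2 called it at -0.39 (adjusted p = 0.0342). Without mutant 3, which leaves the fixed-length contrast with its lone control, it was -0.61 ± 0.12 (adjusted p = 0.0399).

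Tcf4, an E protein that pairs with proneural factors, had 917, 752 and 1099 CPM in mutant libraries, against 803, 827 and 905 CPM in controls. The groups overlapped, with the mutant libraries both lowest and highest. Its log2 fold change of 0.20 ± 0.12 was not called (adjusted p = 0.323). No omission of 1 library gave a call, with values between 0.06 and 0.36.

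Neurod4, also known as Math3, was close to the detection limit. It had 17, 7 and 4 counts in mutant libraries and 25, 3 and 8 counts in controls. That is 0.328, 0.131 and 0.0810 CPM in mutant libraries and 0.795, 0.0447 and 0.190 CPM in controls, and it did not pass the filter on low counts. The exact Poisson 95% interval of the highest mutant library was 0.191 to 0.525 CPM and that of the highest control was 0.514 to 1.17 CPM, covering counting error only. The groups overlapped, and Neurod4 was not called in the 4 fits without 1 library in which it passed the filter (adjusted p of 0.214 to 0.496).

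Within the fixed-length type 9.46% of all tested genes were called, and 5 of 8 members were, with Neurog2, Neurod1, Nhlh1 and Nhlh2 higher and Bhlhe22 lower in mutant libraries. For Bhlhe22 this is the same contrast as the value without mutant 3, not a separate test. Within the estimated-length type 7.92% of genes were called, and the members called were the same 4 that were higher. These fits use a spread pooled over both types, since each type has 1 library of 1 genotype. Neurog2 had a log2 fold change of 1.80 ± 0.15 in the fixed-length and 2.15 ± 0.13 in the estimated-length type, and Nhlh2 had 1.27 ± 0.13 and 1.59 ± 0.12. Neurod1 had 2.22 ± 0.22 in the fixed-length and 2.99 ± 0.19 in the estimated-length type. Nhlh1 had 1.10 ± 0.15 in the fixed-length and 1.77 ± 0.14 in the estimated-length type. Neurod6 was called in neither, at -0.55 ± 0.16 (adjusted p = 0.0968) and -0.47 ± 0.16 (adjusted p = 0.181), but in both when no filter on low counts was used.

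The difference between these effects was tested in its own fit, in which edgeR called 26 genes (0.153%) and 0 of the 8 members, with 3 members at an unadjusted p under 0.05, as were 1222 of all tested genes (7.19%). These 3 were Neurod1, Nhlh1 and Bhlhe22. The effect in the estimated-length type minus that in the fixed-length type was 0.77 ± 0.27 for Neurod1 (adjusted p = 0.618), 0.68 ± 0.20 for Nhlh1 (adjusted p = 0.512) and 0.48 ± 0.18 for Bhlhe22 (adjusted p = 0.651). Zbtb18 was among the 26 genes called, with a difference of 3.75 ± 0.17 (adjusted p = 0.00963).

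**Figure D2:**
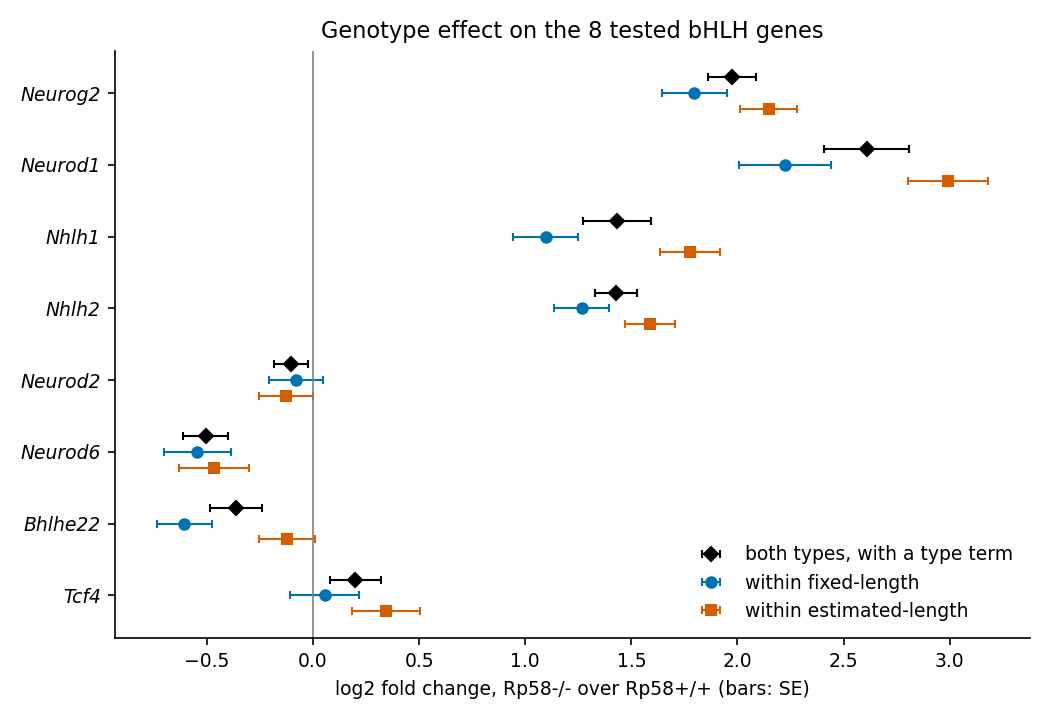
Log2 fold change, Rp58-/- over Rp58+/+ (x axis), with its standard error as bars, for the 8 tested bHLH genes (y axis). Diamonds are the fit over both library types with a type term, circles the effect within the fixed-length type and squares that within the estimated-length type. The 4 genes at the top lie above 1 in all 3 estimates, and Neurod2, Neurod6 and Bhlhe22 lie below 0 in all 3.

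Levels were compared between genes within a library by the deposited TPM, which is scaled by transcript length. Neurod6 was the most abundant of the 9 in every library, at 953, 890.5 and 104 TPM in mutant libraries and 1197, 164 and 135 TPM in controls. Neurod4 was last in every library and Nhlh2 second to last. TPM differed several-fold between the library types for the same gene, so only orders and ratios within a library are read from it.

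Neurod2 and Tcf4 held the next places after Neurod6 in all 6 libraries, and Neurod2 was ahead of Tcf4 in the fixed-length libraries and behind it in the others. In the order of TPM, Neurod1 had place 4 in mutant 1 and mutant 2 and place 5 in mutant 3, and it had place 6 in control 1 and control 2 and place 7 in control 3. Among 20917 protein-coding genes, Neurod1 ranked 798, 948 and 777 in mutant libraries and 3940, 6569 and 7090 in controls. The corresponding ranks of Neurog2 were 2047, 2123 and 1773 in mutant libraries and 5382, 7078 and 6622 in controls, and those of Neurod6 were 128, 133 and 111 in mutant libraries and 102, 88 and 90 in controls.

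The ratio of Neurod6 to Neurog2 TPM, the most abundant differentiation factor over the proneural factor, was 13.9, 12.5 and 8.49 in mutant libraries and 67.0, 57.4 and 47.1 in controls. The groups did not overlap, and the lowest control ratio was more than 3 times the highest mutant one. Neurod6 to Neurod1 gave 5.85, 6.07 and 4.68 in mutant libraries and 40.5, 48.8 and 55 in controls. Neurod2 to Neurod1 gave 1.72, 2.06 and 2.67 in mutant libraries and 9.25, 20.9 and 26.1 in controls. Both ratios also separated the genotypes, as did Neurod6 to Nhlh1, Tcf4 to Neurog2 and Neurod1 to Neurog2. Nhlh1 to Neurog2 did not, with 0.837 to 1.79 in mutant libraries and 0.918 to 2.72 in controls. Every denominator was a gene called higher in mutant libraries, so the ratios partly restate those calls. How many pairs of genes separate the genotypes in this way was not counted. An exact permutation test of 3 against 3 libraries cannot give a two-sided p below 0.1, so these ratios are given as values.

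Of the summed TPM of the NeuroD family, Neurod1 held 11.7%, 10.9% and 12% in mutant libraries and 1.97%, 1.42% and 1.22% in controls. This share was nearly the same in both library types within the mutant group. Neurod2 held 20.1%, 22.6% and 32.0% in mutant libraries and 18.2%, 29.6% and 31.8% in controls, so its share followed the library type. Neurod6 held 68.2%, 66.5% and 56% in mutant libraries and 79.8%, 69% and 67.0% in controls, and Neurod4 at most 0.0219% in any library.

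**Figure D3:**
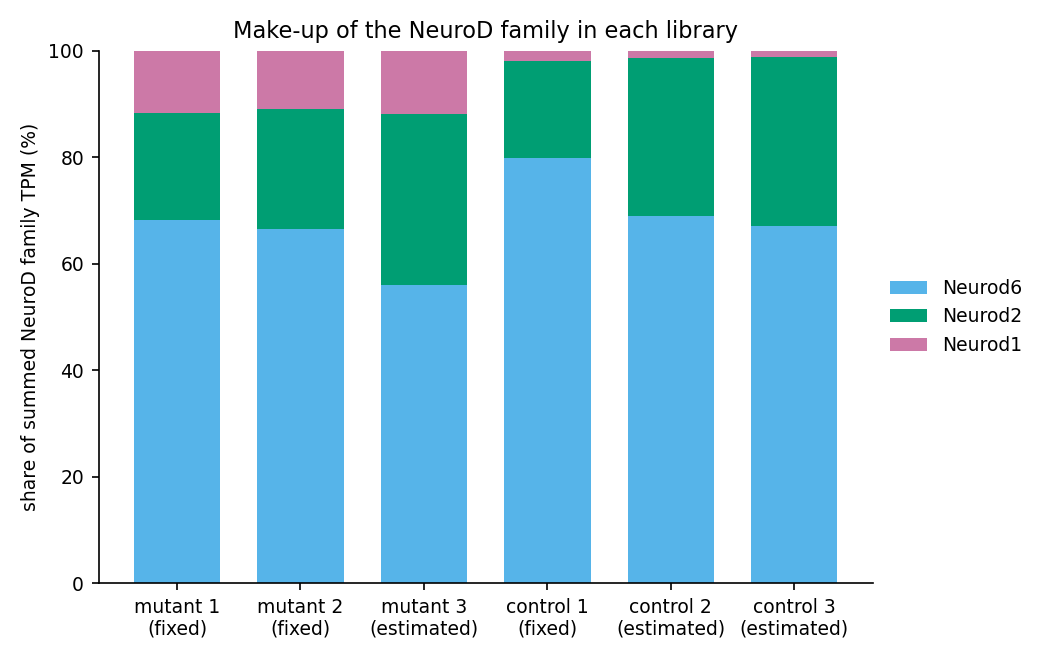
Share in percent (y axis) of the summed TPM of Neurod1, Neurod2, Neurod4 and Neurod6 held by each gene in each library (x axis, Rp58-/- at left, with the library type in brackets). The Neurod1 segment at the top is 10.9% to 12% of the mutant bars and 1.22% to 1.97% of the control bars, and Neurod4 is too small to be drawn.

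At the level of single transcripts, 8 members had 1 transcript each and Tcf4 had 15. Of 42824 transcripts tested 747 (1.74%) were called, and of 21 member transcripts 4 were, those of Neurog2, Neurod1, Nhlh1 and Nhlh2 (adjusted p of 0.00645, 0.0122, 0.0278 and 0.00807). The Neurod6 transcript was not called in this fit (adjusted p = 0.245). Of 14 Tcf4 transcripts tested, edgeR called 0, with 1 at an unadjusted p under 0.05, the coding model Tcf4-204 (log2 fold change 0.49 ± 0.14; adjusted p = 0.255).

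The make-up of Tcf4 followed the library type. The coding model Tcf4-202, of 7147 bases, held 75.8%, 74.3% and 34.7% of the Tcf4 counts in mutant libraries and 75.9%, 35.8% and 36.9% in controls. Tcf4-207, of 7402 bases, held 16%, 14% and 37% in mutant libraries and 17%, 36% and 36% in controls. Fixed-length libraries of both genotypes thus had nearly the same make-up as each other, and so did estimated-length ones. Retained-intron models held 0.942%, 2.14% and 5.60% in mutant libraries and 0.962%, 4.95% and 5.04% in controls. The part of the library type in the Tcf4 gene total was not tested.

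**Figure D4:**
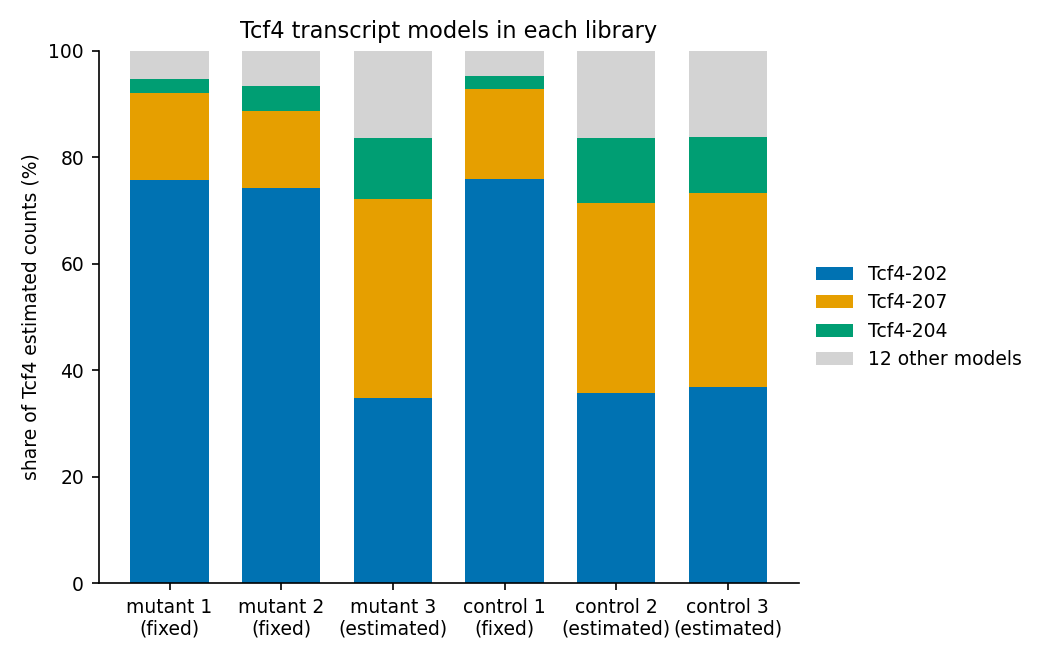
Share in percent (y axis) of the Tcf4 estimated counts assigned to each transcript model in each library (x axis, Rp58-/- at left). Tcf4-202 is 74.3% to 75.9% of the fixed-length bars and 34.7% to 36.9% of the estimated-length bars, whichever the genotype.

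Among themselves, the members fell into patterns that were described by the root mean square distance between their log2 CPM values over the 6 libraries, each gene centred on its own mean. The nearest pair was Neurod2 and Tcf4 (0.19), both of them not called, followed by Neurod2 and Bhlhe22 (0.22). Neurog2 was nearer to Nhlh2 (0.30) than to Neurod1 (0.50) or Nhlh1 (0.58). The farthest pair was Neurod1 and Bhlhe22 (1.74).

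The genes whose patterns were nearest to each called member with a log2 fold change of at least 1 were found by the same distance among 9910 tested protein-coding genes with a mean of at least 5 CPM. For Neurog2 they were Sox6 (0.11), Pax6 (0.11) and Inppl1 (0.11). For Neurod1 they were Crabp1 (0.13), Sln (0.18) and Ptgfrn (0.20). For Nhlh1 they were Adgrg1 (0.19), Cryab (0.22) and Arl4d (0.22), and for Nhlh2 Cul7 (0.08) and Podxl (0.13) were among them. Pax6 is the radial glial transcription factor that acts before Neurog2 in the cortex, and Sox6 is a transcription factor of progenitors and interneurons.

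The partners and antagonists of the members were read from the same fit, in which 7.92% of all tested genes rose and 7.01% fell. Of 4 Id inhibitors, 3 rose in mutant libraries and 0 fell, with a median log2 fold change of 1.34. Id4 had 20.1, 17.8 and 24.4 CPM in mutant libraries and 7.09, 10.3 and 11.7 CPM in controls, a log2 fold change of 1.28 ± 0.13 (adjusted p = 0.00120) that was called whichever library was left out. Id1 and Id3, at under 1 CPM in every library, were called at 1.40 (adjusted p = 0.0439) and 1.99 (adjusted p = 0.0297) but lost the call when any 1 of the 6 libraries was left out. Without the type term edgeR called 0 Id genes, with Id4 alone at an unadjusted p under 0.05, as were 1642 of all tested genes (9.67%) in that fit (log2 fold change 1.10; adjusted p = 0.128). Id2, by far the most abundant of the 4, was at 0.07 and not called.

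Of the E proteins other than Tcf4, Tcf3 (also known as E2A) rose slightly, with 155, 148 and 103 CPM in mutant libraries and 98.1, 91.1 and 81.7 CPM in controls. Its log2 fold change was 0.44 ± 0.11 (adjusted p = 0.0415), and the call was lost without control 1, control 2, control 3 or mutant 1 (adjusted p of up to 0.318). The Tcf3 call was also lost without the type term (0.434) and with an offset for effective length (0.0516). Tcf12, at 0.30, was not called (adjusted p = 0.204). So with Tcf4, 1 of 3 E proteins was called.

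Of 8 repressors of the Hes, Hey and Bhlhe40 type, 7 were tested, 2 rose and 1 fell, with a median log2 fold change of 0.53. Hes1, a Notch effector that represses Neurog2 in progenitors, had 6.33, 6.86 and 8.40 CPM in mutant libraries and 0.223, 0.179 and 0.261 CPM in controls. Every mutant library was far above every control, with a log2 fold change of 5.13 ± 0.26 (adjusted p = 7.11e-05; 0.00344 without the type term). Bhlhe41 rose by 2.19 ± 0.32 (adjusted p = 0.00511; 0.308 without the term). Hey1 was lower, at -0.42 ± 0.10 (adjusted p = 0.0437), a call that was lost when any library but control 3 was left out, and without the type term (adjusted p = 0.996).

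Of 12 other neural bHLH activators, 4 passed the filter on low counts. Atoh8, an atonal-type factor, rose, with 32.8, 39.9 and 22.7 CPM in mutant libraries and 0.986, 1.92 and 1.42 CPM in controls, a log2 fold change of 4.34 ± 0.34 (adjusted p = 0.000391; 0.00516 without the type term). The groups did not overlap, and the call held whichever library was left out. Neurog1, the relative of Neurog2, was not called and had at most 0.675 CPM in any library.

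Of 6 cofactors of neuronal bHLH factors, 4 rose and 1 fell, against 7.92% and 7.01% of all tested genes. Without the type term 1 rose and 0 fell, against 2.36% of all tested genes called. Lmo4 (0.61; adjusted p = 0.0189) and Cbfa2t2 (0.31; adjusted p = 0.0410) were among those that rose in edgeR. Their calls held in only 2 and 1 of the 6 fits without 1 library. Prdm8, the partner of Bhlhe22, had 183, 222 and 256 CPM in mutant libraries and 86.1, 95.2 and 77.5 CPM in controls, a log2 fold change of 1.40 ± 0.14 (adjusted p = 0.00101; 0.0343 without the type term), while Bhlhe22 itself was not called. The corepressor gene Cbfa2t3 had a log2 fold change of 1.71 ± 0.25 (adjusted p = 0.00542; 0.0802 without the term). Its relative Runx1t1 had 76.3, 100.1 and 143 CPM in mutant libraries and 147, 281 and 315 CPM in controls, a log2 fold change of -0.90 ± 0.14 (adjusted p = 0.00762). Runx1t1 was not called without mutant 3 (adjusted p = 0.0751) or without the type term (0.293). With an offset for effective length it was at -0.75 and not called in edgeR either (adjusted p = 0.0570).

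Of 16 reported targets of Neurog2 and NeuroD factors, all were tested, 8 rose and 2 fell, against 7.92% and 7.01% of all tested genes. The median log2 fold change was 0.46, against -0.00077 for all tested genes. The calls of Gadd45g, Dcx and Rnd2 held in only 3, 2 and 1 of the 6 fits without 1 library. The other called targets held in at least 5 of them. Without the type term edgeR called 0 of the 16, with 8 at an unadjusted p under 0.05, against 9.67% of all tested genes. Mfng, a modifier of Notch receptors, had 211, 170.5 and 73.9 CPM in mutant libraries and 24.8, 6.83 and 6.66 CPM in controls, a log2 fold change of 3.20 ± 0.15 (adjusted p = 6.02e-05; 0.0841 without the term). Dll1, a Notch ligand that Neurog2 switches on, had a log2 fold change of 1.01 ± 0.12 (adjusted p = 0.00248; 0.273 without the term). Tbr1, a transcription factor of deep-layer neurons, went the other way with 351, 370.2 and 303 CPM in mutant libraries and 577, 700.3 and 679 CPM in controls, a log2 fold change of -0.93 ± 0.13 (adjusted p = 0.00464; 0.117 without the term).

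**Figure D5:**
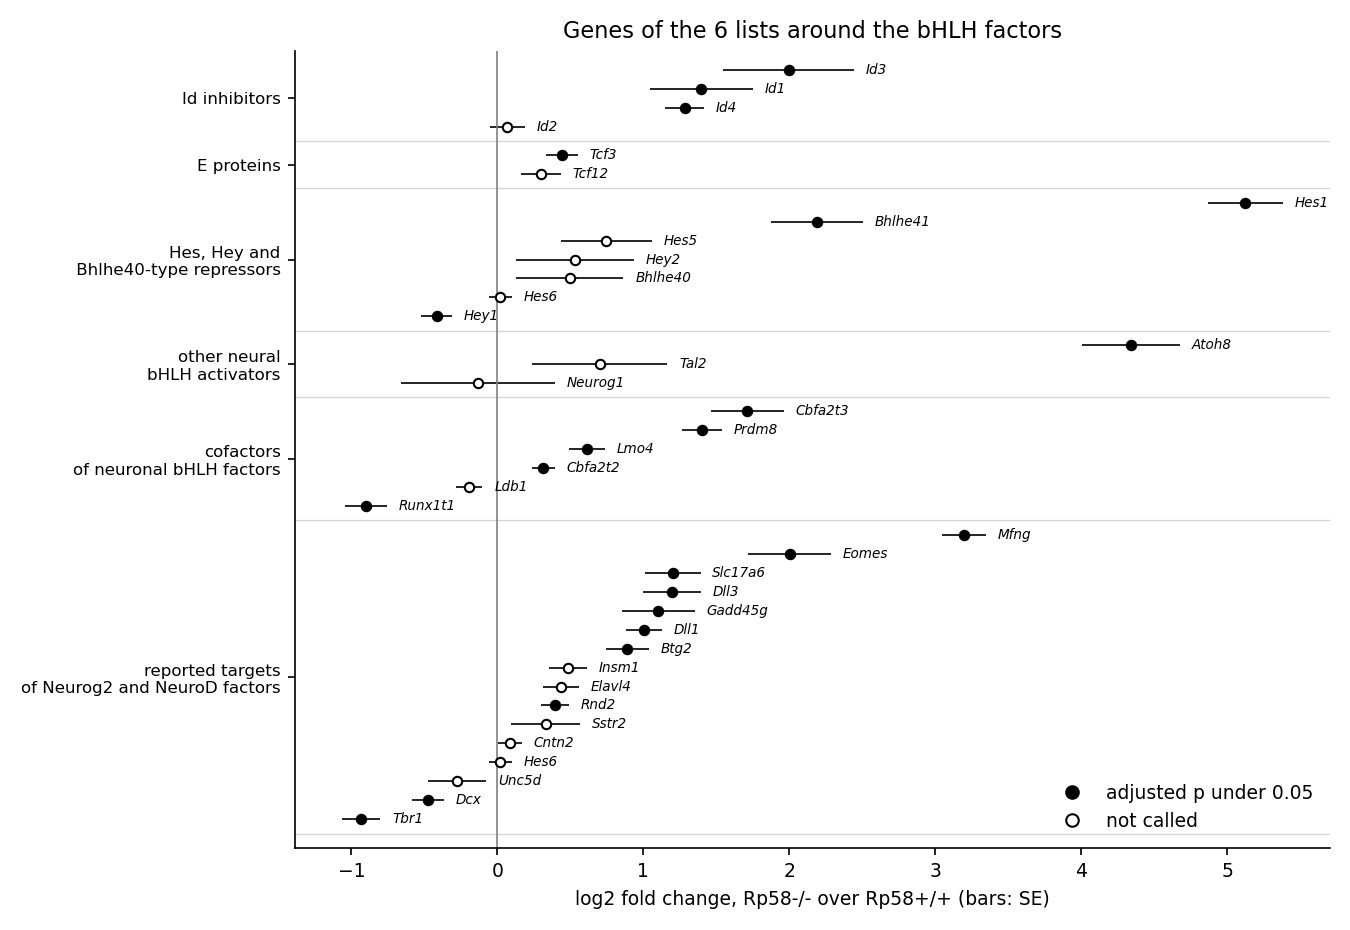
Log2 fold change, Rp58-/- over Rp58+/+, with its standard error as bars (x axis), of the tested genes reported here from 6 lists around the bHLH factors (y axis). Filled points had an adjusted p under 0.05 in the fit with a library type term. Hes1 lies farthest right at 5.13, and Tbr1 (-0.93) and Runx1t1 (-0.90) farthest left.

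Markers of cell types were read from the fit with the type term, in which 7.92% of all tested genes rose and 7.01% fell. Without the type term 2.36% of all tested genes were called, and 9.67% had an unadjusted p under 0.05. These shares stand beside the counts of every marker list below. Of 6 markers of intermediate progenitors, the dividing cells that express Neurog2 and Eomes, 4 rose and 0 fell, and their summed level was 465 to 765 CPM in mutant libraries and 224 to 358 CPM in controls. Their defining marker Eomes had 176, 104 and 70.1 CPM in mutant libraries and 50.7, 12.2 and 11.8 CPM in controls, a log2 fold change of 2.0 ± 0.28 (adjusted p = 0.00485; 0.308 without the type term). Without the type term edgeR called 0 of the 6, with 4 at an unadjusted p under 0.05. All 6 of these markers are also on the list of reported targets. Of 8 radial glial markers 3 rose and 3 fell, and without the type term 3 rose and 1 fell. Their summed level was 100.4 to 211 CPM in mutant libraries and 107 to 237 CPM in controls, with Pax6 higher by 1.85 ± 0.10 (adjusted p = 9.30e-05) and Fabp7 lower at -1.16 ± 0.10 (adjusted p = 0.000611).

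Of 5 markers of dividing cells 3 rose and 0 fell, with a summed level of 60.9 to 103 CPM in mutant libraries and 51.0 to 105 CPM in controls. Most of this sum was Pcna, which was not called, at 36.9 to 82.1 CPM in mutant libraries and 39.9 to 95.6 CPM in controls. Mki67 rose 2.32-fold, Ccnb1 2.20-fold and Top2a 1.99-fold (adjusted p of 0.00374, 0.0291 and 0.0338), each at 10.1 CPM or less in every library. The Mki67 call was lost without mutant 3 (adjusted p = 0.0507), and those of Top2a and Ccnb1 held in 2 and 1 of the 6 fits without 1 library. In the fit with no type term edgeR called 0 of the 5, with 2 at an unadjusted p under 0.05. Of 6 neuronal markers 2 rose and 2 fell, and with no type term edgeR called 0, with 1 at an unadjusted p under 0.05. Their summed level was 3672 to 5742 CPM in mutant libraries and 4481 to 6669 CPM in controls. Stmn2 was lower, at -1.37 ± 0.09 (adjusted p = 0.000217; 0.996 without the term), and Rbfox3 higher, at 1.06 ± 0.13 (adjusted p = 0.00248; 0.509 without the term). The part of a changed mix of cell types in the levels of the bHLH factors was not tested.

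Cajal-Retzius markers had a summed level of 245 to 699 CPM in mutant libraries and 198 to 720.2 CPM in controls, and 1 of 4 rose. Interneuron markers summed to 1.87 to 2.37 CPM in mutant libraries and 0.572 to 2.35 CPM in controls, with 1 of 4 tested that rose. Markers of oligodendrocyte lineage, endothelial cells and microglia each summed to under 3 CPM in every library. Of the oligodendrocyte markers Sox10 was at 0 in all 6 libraries. Olig2 was at 0 in the mutant libraries and had only 3, 4 and 2 counts in control libraries 1 to 3, too few to be tested. Of the 4 genes tested from these 3 lists, Pdgfra rose and Pecam1, Cx3cr1 and Csf1r were not called. Pdgfra had 1.18, 1.61 and 2.53 CPM in mutant libraries and 0.668, 0.759 and 0.592 CPM in controls. Its edgeR call (adjusted p = 0.0202) was lost without the type term (adjusted p = 0.351) and did not hold in every fit without 1 library.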

How the data were processed

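Each deposited table listed 97251 transcripts of 1 library. Per the file headers, it gave the length and effective length in bases, the estimated count (reads assigned to a transcript, not normalized by the authors) and the TPM, which the authors scaled by effective length and total. The submitters' processing notes name kallisto, FastQC and the mm9 build, with no versions, and the labels' protocols name a stranded total RNA kit. Whether counting used strand is not stated.

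Transcripts were joined to GENCODE vM21 by identifier (84637 matched, and the others took 6.85% to 8.58% of the counts and stayed out). Gene values are sums of these counts, rounded to whole numbers. Library type was read from the deposited lengths. No label mentions these types or their origin. Genotypes were compared with edgeR 4.0.16 (quasi-likelihood test, TMM, filterByExpr at a minimum count of 10, R 4.3.3) in a fit with library type as a term, and Benjamini-Hochberg adjusted p-values were taken over all tested genes. The common biological coefficient of variation was 0.186 with the type term (3 residual degrees of freedom) and 0.701 without it. Standard errors are of edgeR log2 fold changes, taken as the absolute change over the square root of its quasi-likelihood F statistic. They therefore carry the same information as the test. SDs are over 3 libraries. Effects within a type and their difference came from fits with a pooled spread. TPM was used for levels between genes in 1 library. The code was tested on simulated data. Alternatives were DESeq2 1.42.0, its size factors in edgeR, no filter, no type term, an offset for effective length, scaling on protein-coding nuclear genes, and leaving out each library.

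The members, lists, markers and the type term were chosen with earlier results of these data known. Named were all members, Zbtb18, up to 3 called genes per list with the smallest p (or its most abundant gene) and the 3 nearest patterns per member. Some genes that this rule takes are not reported here. A few other list genes were named after their values were seen, where a count of a list turns on them. They include Id2, Tcf12, Lmo4, Cbfa2t2, Gadd45g, Dcx, Rnd2, Neurog1, Csf1r, Sox10 and Olig2, and Eomes as a marker. Promoter sequences came from RefSeq (GRCm38.p6), and since the notes name mm9 no other coordinates are given.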

Additional observations from a re-analysis of the deposited data

Results flagged for a closer look

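The genotype effect on Zbtb18, the gene named in the genotype, differed between the library types by 3.75 ± 0.17 on the log2 scale (estimated-length minus fixed-length type; adjusted p = 0.00963 in edgeR's test of the difference). Zbtb18 had 46.7 and 45.7 CPM in mutants 1 and 2 and 1902 CPM in control 1, all of the fixed-length type. In the estimated-length type mutant 3 had 538 CPM, while control 2 had 1587 CPM and control 3 had 1697 CPM. The transcript model Zbtb18-202 held 73.7%, 71.7% and 38.3% of the Zbtb18 counts in mutants 1 to 3 and 98.1%, 88.7% and 89.0% in controls 1 to 3. In CPM the other model, Zbtb18-201, had 14.1, 14.1 and 306 in mutants 1 to 3 and 39.0, 161 and 170.3 in controls 1 to 3, so that mutant 3 was above every control. With 1 mutant library in the estimated-length type, the type and mutant 3 itself cannot be told apart. No member was called in the same test.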

How the results depend on the processing

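Over the 8 tested members, 87 of 96 values under an alternative kept their direction and their side of the threshold, and none changed direction. Without the library type term 400 genes, 7 transcripts, 3 members and 4 genes of the 6 lists were called, against 2537, 747, 5 and 24 with it. All 400 genes were among the 2537. Nhlh1 was then at 1.76 and Neurod6 at -0.23, both no longer called, and Cx3cr1, not called in either fit, changed sign to -0.42. DESeq2 called 4039 genes, and it called Bhlhe22 at -0.39. With the offset for effective length, Id1, Id3, Tcf3, Runx1t1, Top2a and Ccnb1 lost their edgeR calls (adjusted p of 0.0516 to 0.103). With no filter on low counts Bhlhe22 was called at -0.37, and 2505 genes were called within the fixed-length type, 2085 within the estimated-length type and 309 for their difference, against 1606, 1345 and 26. Leaving out 1 library gave 1294 (without control 1) to 3034 genes (without mutant 2), 58 (without control 2) to 286 transcripts (without mutant 3), 4 to 5 members and 14 (without control 1) to 22 list genes. Neurod6 then lay between -0.56 and -0.44 and Bhlhe22 between -0.61 and -0.10. The other named genes kept direction and call in 292 of 371 values. No paired analysis was possible because the labels pair no libraries, and the replicate numbers used here only name them. Neurod4, Neurog1 and the Id1 and Id3 values rest on few counts, and with 3 libraries of each genotype in crossed types, a difference such as that of Tcf4 may be missed.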
